A study of Bos taurus with 14 samples.

Results

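Bta-miR-221 and bta-miR-222 are a pair of miRNAs from neighbouring hairpins on the bovine X chromosome, and were taken as the rows of exactly these names in the library files. They are 2 of 932 miRNA names with reads in the 14 small RNA libraries (642 names in plasma and 916 in leucocytes). No other row, whether a human name or another arm, held miR-221 or miR-222. The blood came from non-lactating, ruminally cannulated Holstein cows, each sampled first on forage without concentrate (FD, 0% concentrate) and later in week 1 of feeding a high-grain diet (HG, 65% concentrate). Plasma was sequenced from cows 1 to 4 (4 libraries on each diet) and leucocytes, taken as the buffy coat of centrifuged blood, from cows 1, 3 and 4 (3 libraries on each diet). The same cows served as their own control and all received FD first, so that diet and sampling time cannot be told apart.

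MiR-221 and miR-222 are processed from a common primary transcript and share their seed, the stretch at the 5′ end through which a miRNA pairs with its target mRNAs. Both are known to repress CDKN1B, an inhibitor of the cell cycle, and KIT, the receptor of stem cell factor, in endothelial and haematopoietic cells. They are known to fall during erythroid maturation and to restrain the response of endothelial cells to stem cell factor. Their mature forms are of nearly the same length, so their read counts are set against each other without scaling by length. How readily each was captured and amplified in the libraries was not measured.

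On the UMD3.1 build used in the library files, mature miR-222 was located at chrX:103538209-103538229 and mature miR-221 at chrX:103538899-103538920, both on the plus strand. The former spans 21 bases, the latter 22, with 669 bases between them and miR-222 lying upstream. In the RefSeq annotation of a later assembly (ARS-UCD2.0), the genes MIR222 and MIR221 both lie within the span of the long non-coding RNA gene LOC132344329. The strand of that gene was not compared with theirs. Reads that also matched another name were found only for miR-221 in leucocytes, where dividing them removed at most 4.5 reads from a library.

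The libraries held between 0.377 and 4.46 (in units of 1e6) miRNA reads in plasma and between 21.8 and 66.1 in leucocytes, so values in leucocytes rest on far more reads. Both extremes in plasma were libraries of cow 1, the lowest on FD and the highest on HG. The cell type markers were found in every library of both sample types. The 7 leucocyte miRNAs (among them miR-142-5p, miR-150 and miR-223) made up 1.89 to 3.54% of the estimated counts in plasma and 2.42 to 3.69% in leucocytes. The 5 erythrocyte miRNAs (led by miR-451) made up 4.70 to 12.6% in plasma and 21.03 to 37.5% in leucocytes, so the buffy coat libraries also held the defining miRNAs of red cells. Liver miR-122 made up 0.666 to 8.28% of plasma reads and at most 0.00899% of leucocyte reads.

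Both miRNAs were found in all 14 libraries and belonged to the more abundant names. In plasma on FD, the counts of miR-221 in cows 1 to 4 were 1469, 991, 3734 and 4843 reads, and those on HG were 20186, 1895, 2584 and 7178 reads. MiR-222 had 264, 1996, 2950 and 2641 reads in the same cows on FD and 10507, 1073, 1669 and 5485 on HG. MiR-221 had more reads than miR-222 in every plasma library but that of cow 2 on FD. In leucocytes, miR-221 had 120410, 113844 and 44335 reads in cows 1, 3 and 4 on FD and 111550, 106608 and 67494 on HG. MiR-222 had 55191, 58843 and 26036 reads on FD and 51854, 48988 and 34525 on HG, below miR-221 in all 6 libraries. Ranked by reads, miR-221 stood at places 44 to 114 in plasma, of 410 to 535 names, and at 48 to 63 in leucocytes, of 727 to 811 names. The places of miR-222 were 68 to 118 in plasma and 72 to 80 in leucocytes.

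Scaled to the reads assigned to miRNAs in the library, the level of miR-221 in plasma on FD was 3901, 694, 2125 and 1567 reads per 1e6 reads in cows 1 to 4 (2072 ± 1354, SD, n = 4). On HG it was 4521, 1943, 2431 and 2111 reads per 1e6 (2752 ± 1197, SD, n = 4). Cow 1 was the highest on both diets and cow 2 the lowest, and the ranges of the diets overlapped. In leucocytes of cows 1, 3 and 4 the level was 1822, 2018 and 2037 reads per 1e6 on FD (1959 ± 119, SD, n = 3) and 2081, 2727 and 2450 on HG (2419 ± 324, SD, n = 3). Here the lowest HG library lay 43.8 reads per 1e6 above the highest FD library, but scaled to the sum of the estimated counts the ranges overlapped (2121 to 2419 on FD and 2390 to 3183 on HG).

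The level of miR-222 in plasma was 701, 1398, 1679 and 855 reads per 1e6 on FD (1158 ± 458, SD, n = 4) and 2353, 1100, 1570 and 1613 on HG (1659 ± 518, SD, n = 4). Cow 1 went from the lowest of the FD libraries to the highest of the HG libraries, and the diets overlapped. In leucocytes it was 835, 1043 and 1196 reads per 1e6 on FD (1025 ± 181, SD, n = 3) and 967, 1253 and 1253 on HG (1158 ± 165, SD, n = 3), again with overlap. By these shares, the order of the mean miR-221 levels was plasma HG, leucocytes HG, plasma FD and leucocytes FD, and each neighbour in that order differed by less than the SD in plasma. The means of miR-222 followed as plasma HG, plasma FD, leucocytes HG and leucocytes FD, with the last 3 lying within 1 SD of each other.

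**Figure D1:**
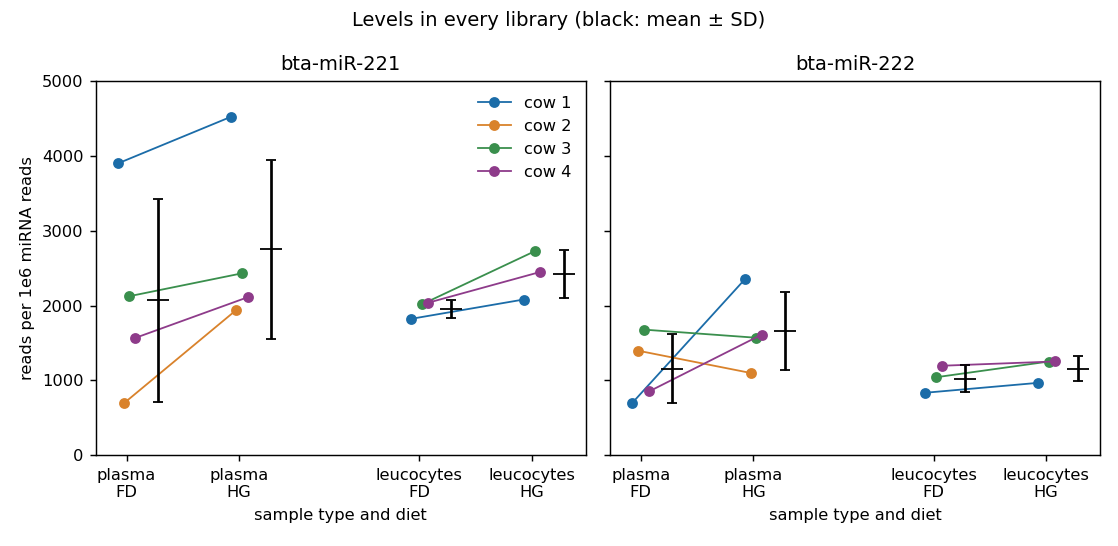
Level of bta-miR-221 and bta-miR-222 in every library (vertical axis, reads per 1e6 miRNA reads, linear from 0) by sample type and diet. Coloured points and lines are cows and black bars the mean ± SD of 4 plasma or 3 leucocyte libraries. Plasma values spread from 694 to 4521 for miR-221, while leucocyte values lie between 1822 and 2727.

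The spread between libraries was much smaller in leucocytes than in plasma for both miRNAs. The coefficient of variation of the miR-221 level was 65.4% on FD and 43.5% on HG in plasma, and 6.07% and 13.4% in leucocytes. For miR-222 it was 39.6% and 31.2% in plasma, and 17.7% and 14.3% in leucocytes. Among names with at least 10 reads in every library of the sample type, the SD of log2 CPM (counts per 1e6 reads after TMM scaling) in leucocytes was 0.15 for miR-222 and 0.23 for miR-221, against a median of 0.37. Of the 455 other names, 3.74% had a smaller SD than miR-222. In plasma both lay near the middle, with an SD of 0.79 for miR-221 and 0.77 for miR-222 against a median of 0.79 over all such names. These SDs span both diets.

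To ask whether the diet altered the level of the pair in plasma, HG was compared with FD within cows by edgeR's quasi-likelihood test with TMM scaling and Benjamini-Hochberg adjustment over all 538 names tested. On this scale miR-221 differed by a log2 fold change of 0.18 (SE 0.48, adjusted p = 0.96), with a 95% interval of -0.91 to 1.28. It was higher on HG in 2 of 4 cows, whereas by share of reads it was higher in all of them. MiR-222 differed by 0.08 (SE 0.69, adjusted p = 0.984), with an interval of -1.51 to 1.67, and was higher in 2 of 4 cows. Neither passed the test, and the intervals still allow levels on HG of 0.531 to 2.43 times those on FD for miR-221 and of 0.351 to 3.19 times for miR-222. The percentage of names called in this comparison was 0% (0 of 538), although 55 had an unadjusted p under 0.05 and DESeq2 called 12. The median log2 difference over all names was 0.25 with TMM and 0.67 when scaled by library size alone. With library size alone the 2 miRNAs stood at 0.58 and 0.54, so that under both scalings they lay below the median of all names. With only names of at least 10 reads in every library they stood at 0.46 and 0.41, above the median of 0.21 over 257 names. With DESeq2 miR-221 stood at 0.19 and miR-222 at 0.10, beside a median of 0.14. Without cow 1 the values with TMM were -0.04 for miR-221 and -0.59 for miR-222, so the direction rests on that cow. Its FD library had the fewest miRNA reads in plasma and its HG library the most. Liver miR-122 took 0.666 to 8.28% of plasma reads on FD and 1.34 to 3.34% on HG, and its part in these values was not tested.

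In leucocytes, where the same comparison covered 782 names, both miRNAs were somewhat higher on HG in 3 of 3 cows, but neither passed the test. MiR-221 had a log2 fold change of 0.29 (SE 0.12; unadjusted p = 0.0325, adjusted p = 0.27; edgeR quasi-likelihood test), which is 1.23-fold with an interval of 1.02 to 1.47. MiR-222 had one of 0.18 (SE 0.12, adjusted p = 0.528; edgeR), or 1.13-fold with an interval of 0.95 to 1.35. In this fit 1.92% of the names were called (15 of 782, and 0 without cow in the model). After TMM scaling, miR-221 had 2036 to 2469 CPM on FD and 2493 to 3267 on HG, without overlap, as did 7.29% of all names in that direction. An unadjusted p under 0.05 with a higher level on HG was found for 7.42% of the names. For miR-221 the unadjusted p was also under 0.05 with library size scaling (0.0441; edgeR) and with DESeq2 (0.0448; Wald test). Under the other scalings, filters, counts and models with all cows it ran from 0.0618 to 0.198 (edgeR). The CPM of miR-222 overlapped between the diets, at 1093 to 1276 on FD and 1261 to 1501 on HG. The erythrocyte miRNAs took 21.03 to 27.6% of leucocyte reads on FD and 23.96 to 37.5% on HG, and their part in these values was not tested. In such bulk samples, a change in the share of a cell type and a change in the miRNA per cell cannot be told apart.

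The diet effect did not differ detectably between the sample types. The log2 change in plasma minus that in leucocytes was -0.25 for miR-221 (SE 0.50, adjusted p = 1) and -0.24 for miR-222 (SE 0.72, adjusted p = 1) in a joint edgeR fit of 800 names, in which the share of names called was 0% (0 of 800, 59 at an unadjusted p under 0.05). The intervals were -1.35 to 0.85 and -1.81 to 1.33. Both values turned positive with library size scaling, at 0.28 and 0.40, and with only names of at least 10 reads in every library, at 0.04 and 0.08.

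To ask whether the pair belonged more to cells or to plasma, leucocytes were compared with plasma on each diet in the same joint fit. That fit takes 1 spread per miRNA and 1 effect per cow for both sample types. Fitted apart, edgeR's biological coefficient of variation was 0.55 in plasma and 0.16 in leucocytes for miR-221, and 0.66 and 0.14 for miR-222. All SEs and p-values of the joint fit, also for the difference of the diet effects, rest on the shared spread. MiR-221 was higher in leucocytes by a log2 difference of 0.36 on FD (SE 0.36, adjusted p = 0.474) and 0.61 on HG (SE 0.38, adjusted p = 0.225) with TMM, but lower by -0.30 and -0.58 with library size scaling. MiR-222 differed by 0.17 on FD (SE 0.53, adjusted p = 0.812) and 0.41 on HG (SE 0.50, adjusted p = 0.554) with TMM, and by -0.37 and -0.77 with library size. Neither miRNA passed the test in either direction in the TMM or the library size fit, while 33% of all names were called on FD (264 of 800) and 34.6% on HG (277 of 800). Of these, 147 were higher and 117 lower in leucocytes on FD with TMM, and 94 higher and 150 lower with library size. On HG the split was 150 against 127 with TMM and 63 against 196 with library size. The median log2 difference of all names was 1.63 on FD and 0.84 on HG with TMM, and 1.03 and -0.28 with library size, so both miRNAs lay below that median under either scaling. Calls came under other choices. With only names of at least 10 reads in every library, the difference of miR-221 was 0.997 on FD and 0.96 on HG (adjusted p = 0.0255 and 0.0365; edgeR), where the median of the 257 names then tested was -0.09 and 0.05. Most names were called there, 163 of 257 on FD and 173 of 257 on HG. Without cow 1 the difference of miR-221 on HG was 1.51 and that of miR-222 was 1.28 (adjusted p = 0.0422 and 0.0468; edgeR). The median of the 747 names then tested was 1.32, above miR-222 and below miR-221, and 165 of them were called. The endothelial and platelet miRNAs miR-126-3p and miR-126-5p took 0.317 to 0.716% of plasma reads and at most 0.0245% of leucocyte reads, and their part in these values was not tested.

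**Figure D2:**
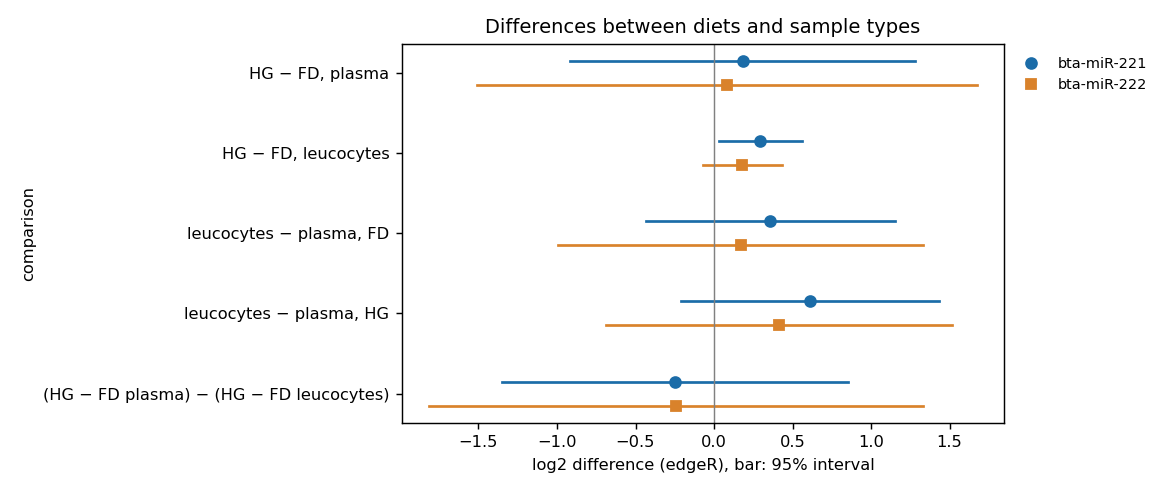
Log2 difference of bta-miR-221 (circles) and bta-miR-222 (squares) between diets within each sample type, between sample types on each diet, and between the diet effects (horizontal axis, log2; bars are 95% intervals of the edgeR fits). Every interval includes 0 but that of miR-221 in leucocytes, 0.03 to 0.56, whose adjusted p was 0.27.

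The ratio of miR-221 to miR-222 reads needs no scaling between libraries. In plasma on FD it was 5.56, 0.496, 1.27 and 1.83 in cows 1 to 4, and on HG it was 1.92, 1.77, 1.55 and 1.31. The FD libraries thus ran from a marked excess of miR-221 in cow 1 to an excess of miR-222 in cow 2, and the HG libraries lay close together within that range. In leucocytes of cows 1, 3 and 4 it was 2.18, 1.93 and 1.70 on FD and 2.15, 2.18 and 1.95 on HG. All 6 leucocyte libraries therefore held about 2 reads of miR-221 for each read of miR-222 (geometric mean 2.01).

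Counting error was far smaller than the differences among the plasma libraries. On FD the share of miR-221 in the reads of the pair was 84.8% in cow 1 (95% Wilson interval 83.0 to 86.4%, 1733 reads) and 33.2% in cow 2 (31.5 to 34.9%, 2987 reads). On HG the shares ran from 56.7% to 65.8%, and in leucocytes from 63.0% to 68.6%. The reads are not counted as independent molecules, so these intervals cover counting error only.

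**Figure D3:**
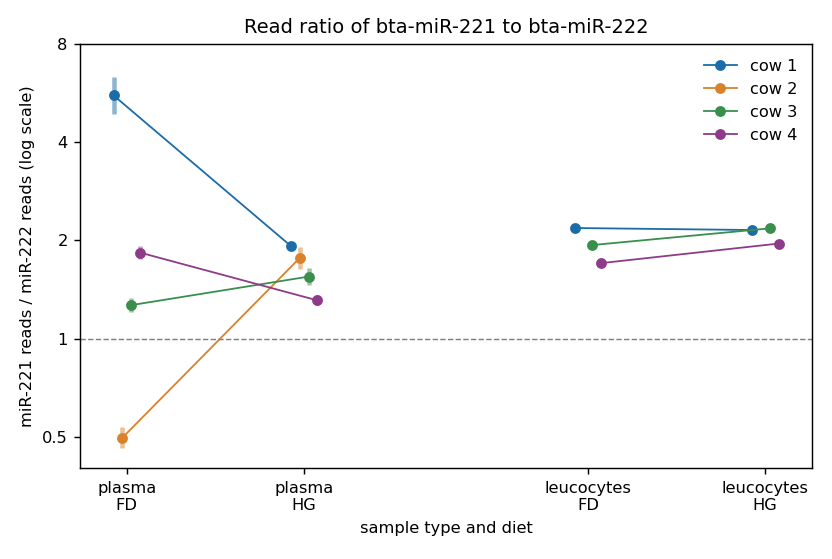
Reads of bta-miR-221 divided by reads of bta-miR-222 in every library (vertical axis, log scale) by sample type and diet, with lines joining the libraries of a cow and pale bars for the 95% counting interval. Plasma on FD spreads from 0.496 to 5.56, plasma on HG from 1.31 to 1.92 and leucocytes from 1.70 to 2.18.

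Between the diets the ratio moved in no common direction in plasma. The log2 ratio on HG minus that on FD was -1.53, 1.83, 0.29 and -0.49 in cows 1 to 4, a mean of 0.03 ± 1.42 (SD, n = 4 cows; exact two-sided sign-flip permutation test, p = 1, smallest possible p = 0.13). In leucocytes it was -0.02, 0.17 and 0.20 in cows 1, 3 and 4, a mean of 0.12 ± 0.12 (SD, n = 3 cows; exact two-sided sign-flip permutation test, p = 0.5, smallest possible p = 0.25). In both the mean was no larger than the spread between cows. The SD of the log2 ratio among plasma libraries was 1.44 on FD and 0.24 on HG, a difference that was not tested. It was 0.97 on FD without cow 1 and 1.11 without cow 2, and so stayed above that on HG when either of the extreme libraries was left out.

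Between sample types the ratio showed no difference that passed a test. Averaged over the diets, the log2 ratio in leucocytes exceeded that in plasma by 0.06 ± 0.59 (SD, n = 3 cows; exact two-sided sign-flip permutation test, p = 1, smallest possible p = 0.25), and was higher in 2 of 3 cows. On HG alone all 3 leucocyte libraries had a higher ratio than all 4 plasma libraries, by 0.37 on the log2 scale (exact permutation test of unpaired libraries, two-sided, p = 0.0571, smallest possible p = 0.0286). Within cows 1, 3 and 4 the log2 ratio on HG was higher in leucocytes by 0.16, 0.49 and 0.58. On FD it differed by -1.35, 0.61 and -0.11. The unpaired difference on FD was 0.28 (exact permutation test, two-sided, p = 0.657), with the leucocyte ratios inside the plasma range.

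The pair was set beside all other pairs of bovine miRNAs lying within 10000 bases on the same strand, with at least 10 reads in every library of the sample type. Pairs of one cluster share members and are not independent. In leucocytes the SD of the log2 ratio over all libraries was 0.14 for miR-221 and miR-222, against a median of 0.35 over 161 other pairs, of which 151 had a larger SD. In plasma it was 0.96 against a median of 0.68 over 58 other pairs, of which 14 had a larger SD. Thus, by the SD over all libraries, the same pair stood among the steadiest in leucocytes and among the more variable in plasma. Its plasma SD was 6.82 times its leucocyte SD, where the median of the 59 pairs present in both sample types was 2.98 times. For all pairs the plasma SD includes cow 2, which has no leucocyte library and had the lowest ratio of miR-221 to miR-222. The larger spread on FD was common in plasma, as 45 of the 58 other pairs had a larger SD on FD than on HG. On FD 9 of them exceeded the SD of miR-221 and miR-222, and on HG 42 did. With at least 100 reads for both members in every plasma library, 29 other pairs were left, of which 4 had a larger SD over all libraries and 2 on FD. In leucocytes 122 of the 161 other pairs had a larger SD on FD and 152 on HG. With at least 100 reads in every leucocyte library, 74 other pairs were left, with a median SD of 0.27. Of these, 65 had a larger SD than miR-221 and miR-222 over all libraries and 47 on FD.

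**Figure D4:**
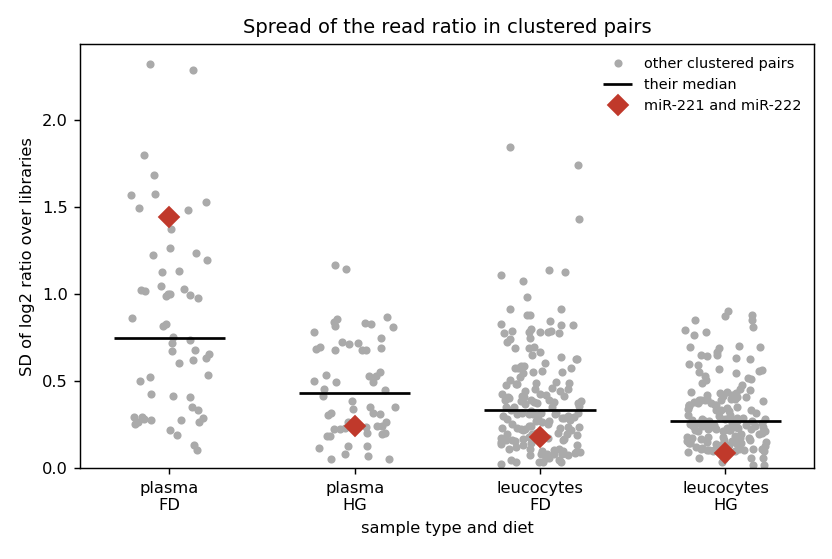
SD of the log2 read ratio over libraries (vertical axis, linear from 0) for pairs of clustered bovine miRNAs, by sample type and diet. Grey points are other pairs (58 in plasma, 161 in leucocytes), black lines their median and red diamonds the pair of miR-221 and miR-222, which is at 1.44 in plasma on FD and at 0.24, 0.18 and 0.08 in plasma on HG, leucocytes on FD and leucocytes on HG.

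The levels of the pair moved together more in leucocytes than in plasma, given here as a description over libraries that share cows and TMM scaling. Pearson's r of log2 CPM between miR-221 and miR-222 was 0.79 over 6 leucocyte libraries and 0.24 over 8 plasma libraries. In leucocytes miR-221 ranked 23rd among 455 names by likeness to miR-222, and miR-222 ranked 37th by likeness to miR-221. In plasma the corresponding ranks were 94 and 65 among 195 names. The plasma value rested on single libraries, being -0.19 without that of cow 1 on HG and 0.59 without that of cow 1 on FD. In leucocytes it ran from 0.40 without cow 3 on HG to 0.92 without cow 1 on FD.

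Other names lay closer to each member than its partner did. In plasma the names most alike to miR-221 were bta-let-7d (r = 0.89), bta-miR-30b-5p (0.84) and bta-miR-22-5p (0.83) over 8 libraries. Those most alike to miR-222 were bta-miR-421 (0.98), another miRNA of the X chromosome, bta-miR-148a (0.94) and bta-miR-874 (0.93). In leucocytes, over 6 libraries, miR-221 was followed most closely by bta-miR-769 (0.98), bta-miR-320a (0.96) and its human counterpart hsa-miR-320a-3p (0.96), which are near-identical entries. MiR-222 was followed by bta-miR-6523a (0.94), bta-miR-7860 (0.92) and hsa-miR-25-5p (0.92). The lists of the members and of the sample types held no name in common.

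The number of distinct read sequences behind each miRNA, which includes variants of length and sequence, was 17 to 93 for miR-221 and 18 to 57 for miR-222 in plasma. It was 237 to 420 and 185 to 353 in leucocytes. In plasma of cow 1 on FD, where the ratio was highest, the 1469 reads of miR-221 fell on 17 distinct sequences. The 24 other names within 1.5 times that number of reads in this library had 11 to 37 (median 24.5), and 19 of them had more than miR-221. The 264 reads of miR-222 in the same library fell on 18 distinct sequences, against a median of 10 in 23 like names. In plasma of cow 2 on FD, where the ratio was lowest, miR-221 had 24 distinct sequences (median of like names 13) and miR-222 had 31 (median 19). MiR-221 of cow 1 on FD was thus spread over fewer sequences than most names of like read number, whereas both members in cow 2 were spread over more. MiR-221 of cow 3 on FD, where the ratio was 1.27, also had fewer distinct sequences (27) than the median of 22 like names (34.5).

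Of the other bovine names located on the X chromosome, 0 of 41 passed the edgeR test for diet in plasma, where 0 of all 538 names did. In leucocytes 0 of 56 were higher and 2 were lower on HG, bta-miR-2285bf and bta-miR-374a (3.57%), where over all 782 names 3 were higher and 12 lower (1.92%). Their median log2 difference between the diets was 0.45 in plasma and -0.18 in leucocytes, against 0.25 and -0.01 over all names. Between leucocytes and plasma 32.1% were called on FD (15 higher and 3 lower in leucocytes) and 30.4% on HG (12 higher and 5 lower), against 33% and 34.6% of all names. With library size scaling 6 were higher and 5 lower on FD, and 2 higher and 8 lower on HG. Their median log2 difference with TMM was 1.38 on FD and 1.18 on HG, beside 1.63 and 0.84 over all names, and with library size 0.75 and -0.06, beside 1.03 and -0.28.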

How the data were processed

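Small RNA libraries of plasma (8) and leucocytes (6) were used. Per the paper, reads were demultiplexed with bcl2fastq 2.20 and mapped by sRNAbench against bovine and human miRBase entries on UMD3.1. The authors deposited read counts, numbers of distinct sequences (also counts), RPM, used to recover the total reads, and estimated counts (expected counts, in which a read matching several names is split). The authors also deposited tables of normalized signal, scaled within each library, which served only as an alternative for the ratio. Levels are estimated counts per 1e6 reads assigned to miRNAs in the library, as in the authors' RPM, while shares of marker lists and library sizes in the tests rest on the sum of the estimated counts, which is 71.2 to 78.7% of those reads in plasma and 84.2 to 87.1% in leucocytes.

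Rounded estimated counts were tested with edgeR 4.0.16 (R 4.3.3; quasi-likelihood, robust, TMM, cow plus diet or group, at least 10 reads in total, Benjamini-Hochberg adjustment, threshold 0.05) or DESeq2 1.42.0 as an alternative. Standard errors and intervals follow from the F statistic. The scripts were tested on simulated data. Ratios were tested by exact permutation. Alternatives were other scalings, filters, count columns, no block and each cow left out.

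Plasma libraries were paired by the order of their labels, and 504 of 504 values equal those of the study's table that numbers the cows. Leucocyte titles carry the letter of the cow. Deviations of the same cow on both diets correlated at -0.52 to 0.44 in plasma (different cows -0.65 to 0.75) and at 0.49 to 0.69 in leucocytes (different cows -0.64 to 0.36). The plasma profiles thus do not show the pairing, which is known here only from how the authors numbered the cows. The named miRNAs are both members, the 3 names most correlated with each in each sample type and the calls on the X chromosome. The members and marker lists (leucocyte, erythrocyte, endothelium and platelets, liver) were chosen with earlier results of these data known. Mature sequences were not used here.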

Additional observations from a re-analysis of the deposited data

Results flagged for a closer look

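Among the 4 plasma libraries on HG, that of cow 1 stood apart in its TMM-scaled level of miR-221. It had 6816 CPM, while the lowest library had 1959 CPM, and its gap to the nearest library was 0.854 of the whole range, above Dixon's 95% critical value for 4 libraries. Of 10 such groups examined (levels, distinct sequences and ratio), this was the only 1, and chance flags about 1 in 20 groups.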

How the results depend on the processing

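Of 126 alternative values for both miRNAs and their ratio, 104 kept their direction and side of the threshold, 18 changed direction and 4 came to pass it. Some of these could not differ, so the number kept is no measure of robustness. The authors' scaling cancels in the ratio, and undivided counts leave the plasma ratio as it was. In the joint fit, cows 1, 3 and 4 only is the same as leaving out cow 2. With cows left out 1 at a time, the log2 diet effect in plasma was -0.0409 to 0.50 for miR-221 and -0.59 to 0.65 for miR-222, and in leucocytes 0.27 to 0.40 and 0.18 to 0.22. Leucocytes minus plasma was 0.28 to 1.22 for miR-221 and -0.0034 to 0.62 for miR-222 on FD, and 0.31 to 1.51 and 0.21 to 1.28 on HG. The difference of the diet effects was -0.42 to -0.03 and -0.66 to 0.18. The log2 ratio differed between diets by -0.58 to 0.54 in plasma and by 0.07 to 0.18 in leucocytes, and between sample types by -0.18 to 0.39. With library size scaling, leucocytes minus plasma was -0.30 and -0.37 on FD and -0.58 and -0.77 on HG, and the difference of the diet effects 0.28 and 0.40. With at least 10 reads in every library, leucocytes minus plasma was 0.997 and 0.96 for miR-221 on FD and HG, and the difference of the diet effects, an alternative chosen after seeing the data, 0.0411 and 0.0760. With cows 1, 3 and 4 only, also chosen afterwards, it was 0.18 for miR-222. Scaled to the sum of the estimated counts, also added afterwards, the lowest HG library of leucocytes lay at -29.8 per 1e6 from the highest FD library for miR-221. The causes were not tested.

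Without the replicate block the diet effect was 0.22 and 0.12 in plasma and 0.30 and 0.18 in leucocytes, and the block changed no call of either miRNA or of the ratio. The number of names called in leucocytes fell from 15 to 0 without the block and without cow 3, and was 8 without cow 1, 102 without cow 4, 25 with DESeq2, 9 with its size factors, 24 with at least 10 reads in every library and 5 with identical names once. In plasma DESeq2 called 12 names. Between sample types the 264 names on FD and 277 on HG became 163 and 173 with at least 10 reads in every library, 86 and 122 without cow 3, and 165 on HG without cow 1. Summing bovine and human names was not run, as the files held no row of a human name for either miRNA. The lowest read number of the pair, 264, limits the ratio in plasma, whose intervals are otherwise narrow.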
